A study of Mus musculus with 30 samples.

Results

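The reads described here are fragments of 5S rRNA, the small RNA of the large ribosomal subunit. Members were all sequences that matched, over their whole length and in the sense direction, any GENCODE vM21 transcript of biotype rRNA outside the mitochondrial genome with a length of 100 to 130 nt. There are 299 such transcripts, of which 266 were matched by reads. In all, 13679 distinct sequences met this rule. Counted library by library they made up 89284 of 175305168 sequence entries, and they held 30356411 of 1487695334 reads.

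Small RNA came from the cortex (prefrontal, by the study's methods) of 6-month-old mice. AD mice were 5xFAD mice, hemizygous for transgenes that carry human familial Alzheimer's disease mutations, and WT mice were their littermates on the C57BL/6J background, of both sexes. Small RNA of 15 to 50 nt was cut from a 15% urea gel and either made into libraries directly (traditional-seq, 7 WT and 7 AD libraries) or first treated with T4 polynucleotide kinase (T4PNK) and AlkB (PANDORA-seq, 8 WT and 8 AD libraries). T4PNK gives RNA fragments the end groups that adapter ligation needs, and AlkB removes base methyl groups that stop reverse transcription. The comparisons were PANDORA-seq against traditional-seq and, within each protocol, AD against WT. The 5xFAD transgenes are driven by the neuronal Thy1 promoter, so these mice model amyloid production by neurons. As a check of the tissue, reads of 2 mature miRNAs rich in brain were set beside those of 4 typical of other tissues. miR-9-5p stood at 21.3 to 115 RPM (reads per 1000000 reads of the library) in PANDORA-seq and 4511 to 19457 RPM in traditional-seq, and miR-128-3p at 453 to 1907 RPM and 16154 to 64210 RPM. The skeletal muscle miR-206-3p, the heart miR-208a-3p, the gut and liver miR-192-5p and the red cell miR-451a reached at most 8.77 RPM in any PANDORA-seq and 69.5 RPM in any traditional-seq library, and miR-208a-3p was at 0 in all of them.

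5S rRNA is the only rRNA made by RNA polymerase III. Its promoter lies inside the gene and is bound by TFIIIA, which also binds the RNA itself. Free 5S rRNA travels with the ribosomal proteins RPL5 and RPL11, and this particle can hold MDM2, the ubiquitin ligase of p53, when ribosome assembly is disturbed. Mammals carry tandem 5S gene copies together with many dispersed pseudogenes.

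The transcript with most matching reads was n-R5s100 on the minus strand of mouse chromosome 8 (GRCm38, chr8:123538786-123538904), a gene of 119 nt with a single exon and no coding part. The same 119 nt occurred in 32 annotated copies, all on the minus strand of chromosome 8 between 123538786 and 123622046, so reads could not be told apart between them. This sequence matched 30018924 of the 5S reads (98.9%). Many of these reads also match other copies, as n-R5s106 and n-R5s112, with 1 difference each, matched 92.8% and 90.8%. Positions are counted from the first base of n-R5s100. RefSeq annotation of the same gene on GRCm38.p6 is 2 bases longer at the 3′ end, as it is for 31 of the 32 copies.

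Among members of the rule, the fragments that led in each protocol came from different parts of this RNA. This holds only without reads that run past nt 119 with extra T, which the rule leaves out. With them counted in, the first 6 sequences of both protocols all reached nt 119, and all 6 of traditional-seq were T-extended. The 6 sequences with the highest mean in PANDORA-seq all ended at nt 119, the annotated 3′ end, and differed in where they began. They are shown with the part shared by all 6 in capitals.
nt 85 to 119: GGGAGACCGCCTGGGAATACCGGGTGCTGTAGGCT
nt 84 to 119: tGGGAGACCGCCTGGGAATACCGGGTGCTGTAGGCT
nt 76 to 119: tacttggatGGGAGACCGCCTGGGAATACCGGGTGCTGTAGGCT
nt 77 to 119: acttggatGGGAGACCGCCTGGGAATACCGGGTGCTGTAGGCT
nt 82 to 119: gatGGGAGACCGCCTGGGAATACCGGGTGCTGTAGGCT
nt 83 to 119: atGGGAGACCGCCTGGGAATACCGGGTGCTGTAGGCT

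Of the 6 leading sequences in traditional-seq, 5 came from the middle of the RNA and 1 from its 3′ end. The capitals mark the 22 nt that the 5 internal sequences share.
nt 36 to 63: cgTCTGATCTCGGAAGCTAAGCAGggtc
nt 35 to 63: tcgTCTGATCTCGGAAGCTAAGCAGggtc
nt 90 to 119: accgcctgggaataccgggtgctgtaggct
nt 38 to 59: TCTGATCTCGGAAGCTAAGCAG
nt 34 to 63: ctcgTCTGATCTCGGAAGCTAAGCAGggtc
nt 37 to 59: gTCTGATCTCGGAAGCTAAGCAG

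Depth differed between the protocols. PANDORA-seq libraries held 54926347 to 105876141 reads, with 785572 to 2958699 reads of 5S, and traditional-seq libraries held 9370669 to 17053412 reads, with 2337 to 49620 reads of 5S. Levels are therefore given as RPM, the reads of a sequence divided by all reads of its library, times 1000000. PANDORA-seq files hold reads of 15 to 45 nt and traditional-seq files reads of 15 to 42 nt. The labels do not say whether the same mice gave libraries of both protocols, but 14 libraries of each carry the same 14 sample codes. The protocols were tested as 30 separate libraries. With the 14 libraries of each paired by code, the log2 difference in 5S RPM was 3.86 (exact sign-flip permutation test, p = 0.000122, the smallest that 14 pairs allow), and none of the protocol differences in levels, shares and ratios lost its call.

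5S fragments made up more of the PANDORA-seq reads than of the traditional-seq reads. The 16 PANDORA-seq libraries ranged from 12958 to 34817 RPM with a median of 23934 RPM, and the 14 traditional-seq libraries from 226 to 4050 RPM with a median of 1297 RPM, without overlap. The means were 22846 ± 7865 RPM (SD, n = 16) and 1485 ± 1186 RPM (SD, n = 14), a ratio of 15.4 (permutation test, p = 1e-05, two-sided, the smallest p that 100000 shuffles can give). The spread was wider in traditional-seq, where the highest library was well over 10 times the lowest. Per read matched to the reference RNAs in place of all reads, the log2 difference was 5.80 in place of 3.94, as 18.5% ± 3.83 of PANDORA-seq reads and 71.1% ± 7.73 of traditional-seq reads were matched.

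The excess in PANDORA-seq grew with fragment length. Fragments of 15 to 24 nt averaged 1590 ± 498 RPM in PANDORA-seq and 755.6 ± 581 RPM in traditional-seq, with overlapping ranges (permutation test, p = 0.00033). Those of 25 to 34 nt averaged 4629 ± 1507 RPM against 676 ± 602 RPM, and those of 35 to 42 nt 12987 ± 4402 RPM against 52.6 ± 36.2 RPM. Neither of these longer classes overlapped between the protocols (permutation test, p = 1e-05 for each). The median length of a 5S read lay between 35 and 39 nt in every PANDORA-seq library and between 19 and 27 nt in every traditional-seq library. When reads that run past the annotated 3′ end with extra T were counted in, the log2 difference of the 15 to 24 nt class went from 1.07 to 0.21 and no longer passed the test (permutation test, p = 0.423). That of the 35 to 42 nt class fell from 7.95 to 6.39 and still passed.

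**Figure D1:**
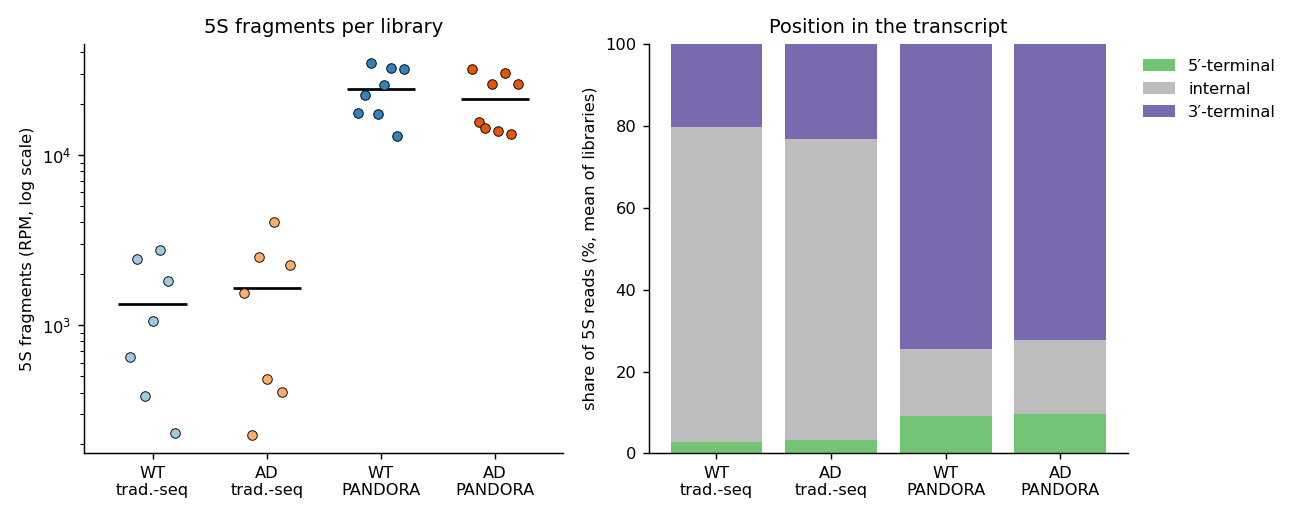
Left, 5S fragments in RPM on a log axis, 1 point per library and a line at the mean of each group (7 or 8 libraries). All PANDORA-seq libraries lie at or above 12958 RPM and all traditional-seq libraries at or under 4050 RPM. Right, the mean share of 5S reads that begin in the first 3 nt (5′-terminal), end in the last 3 nt (3′-terminal) or do neither (internal).

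Where the members lay in the RNA also differed. Fragments that ended in the last 3 nt (3′-terminal) held 60.6% to 84.9% of the 5S reads of a PANDORA-seq library, with a median of 74.1%, and 8.79% to 47.1% in traditional-seq, with a median of 17.8%. Internal fragments showed the opposite, with 11.05% to 25.2% in PANDORA-seq and 47.6% to 89.9% in traditional-seq. Neither pair of ranges overlapped, and the mean differences were 51.6 and -57.9 percentage points (permutation test, p = 1e-05 for each). Fragments that began in the first 3 nt (5′-terminal) held 9.39% ± 3.74 of 5S reads in PANDORA-seq and 3.06% ± 2.28 in traditional-seq, and here the ranges overlapped (permutation test, p = 2e-05). In RPM all 3 classes were higher in PANDORA-seq, by a ratio of 79.5 for 3′-terminal, 73.6 for 5′-terminal and 3.07 for internal fragments, with only reads that end within the annotated transcript counted.

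These differences in share rest in part on where the annotation ends. With reads past the annotated end counted as 3′-terminal, an alternative chosen after seeing the data, the difference was 15.2 percentage points for 3′-terminal and -19.4 for internal fragments, both still past the test (permutation test, adjusted p = 9.8e-05 and 1.3e-05). In RPM the log2 difference of 3′-terminal fragments was then 3.90 in place of 6.31, below the 6.20 of 5′-terminal fragments, so which of these classes differed more depends on the extended reads.

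Along the transcript, coverage in PANDORA-seq was lowest at nt 57, with 1020 ± 262 RPM, and highest at nt 105, with 17199 ± 6350 RPM. In traditional-seq it was lowest at nt 1, with 21.7 ± 14.4 RPM, and highest at nt 41, with 998 ± 915 RPM. With T-extended reads counted in, traditional-seq coverage was highest at nt 105 too, with 2373 ± 1471 RPM against 35514 ± 12411 RPM in PANDORA-seq, and it lay at nt 90 or later in all 14 libraries. The peak at nt 41 is thus one of reads that end within the annotated transcript. In PANDORA-seq 49.2% ± 9.96 of reads began at nt 81 to 90 and 18.8% ± 9.44 at nt 71 to 80, against 6.86% ± 6.73 and 2.72% ± 0.848 in traditional-seq. In traditional-seq 45.01% ± 14.6 began at nt 31 to 40 and 13.8% ± 3.81 at nt 21 to 30, against 3.46% ± 1.06 and 1.05% ± 0.321 in PANDORA-seq. The share at nt 71 to 80 rests largely on reads of 43 to 45 nt, which only PANDORA-seq files hold, and was 7.26% ± 2.38 with reads of 15 to 42 nt. With T-extended reads, 28.7% ± 6.22 of traditional-seq reads began at nt 91 to 100, 25.6% ± 11.6 at nt 101 to 110 and 17.7% ± 9.63 at nt 31 to 40. Of 11 windows of 10 nt, 9 differed between the protocols at an adjusted p under 0.05, 4 of them with a higher share in PANDORA-seq.

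**Figure D2:**
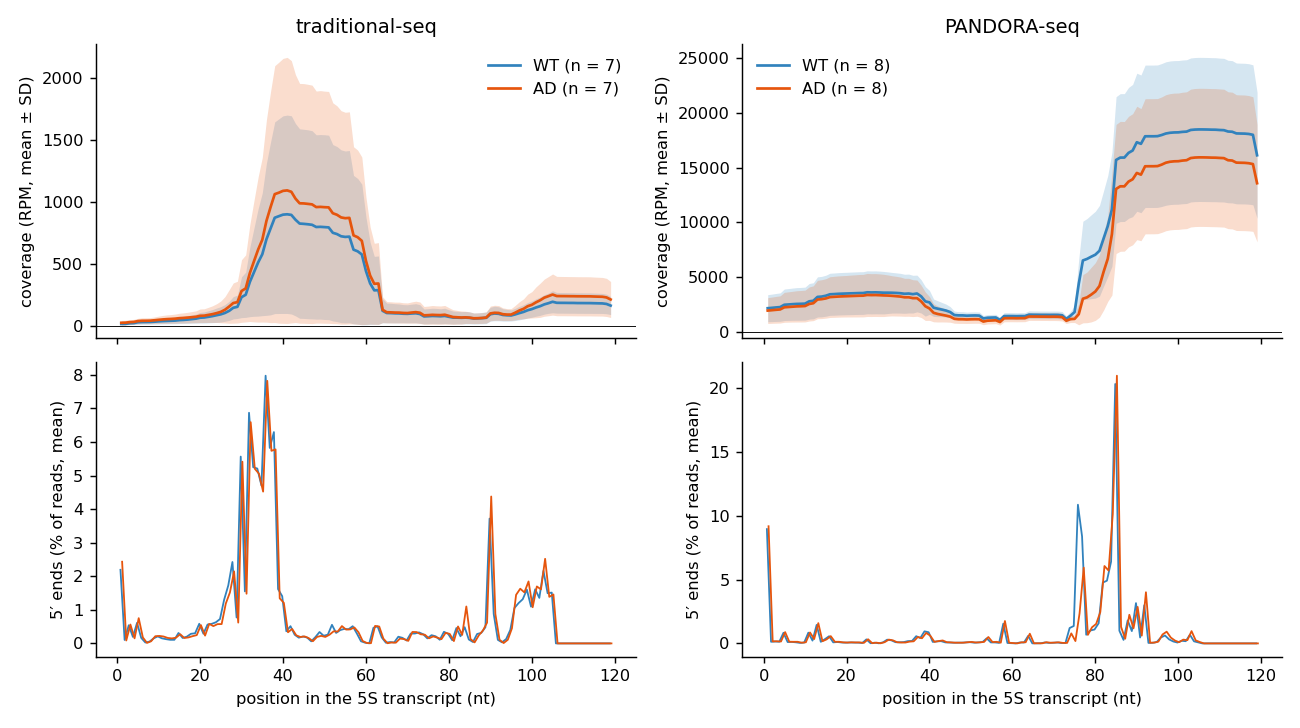
Top, coverage of each position of the 119-nt transcript in RPM, mean of the libraries of a group with the SD as a band; bottom, the share of reads with their 5′ end at each position (mean). The vertical scales differ between panels. Reads past nt 119 are not included. Traditional-seq peaks at nt 41 (at nt 105 with T-extended reads) and PANDORA-seq at nt 105. In PANDORA-seq 5′ ends at nt 71 to 80 made up 24.7% in WT and 12.9% in AD, and those at nt 81 to 90 45.1% and 53.2%, neither past the adjusted test. These windows were not tested by genotype in traditional-seq.

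Among reads that end within the annotated transcript, single sites carried much of each profile. In PANDORA-seq nt 85 was the first base of 20.7% ± 7.98 of the fragments in the leading transcript (range 11.2% to 36.8%), nt 1 of 9.07% ± 3.62 and nt 84 of 8.28% ± 4.24. The end at nt 119 was shared by 65.4% ± 5.99 of them and the end at nt 118 by 7.85% ± 0.948. Starts in traditional-seq were spread more widely, with nt 36 leading at 7.90% ± 3.16 and nt 32 following at 6.73% ± 2.67. Internal ends stood out in traditional-seq at nt 63 (10.2% ± 5.90), nt 59 (8.48% ± 3.56) and nt 56 (7.99% ± 2.28), while nt 119 held 20.97% ± 13.9.

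Among members of the rule, the fragment of nt 85 to 119 was the most abundant in PANDORA-seq, with a mean of 4162 RPM. The same fragment with 1 T past nt 119, outside the rule, averaged 6640 RPM. For the fragment without T, the lowest, median and highest values were 2179, 3564 and 8944 RPM in PANDORA-seq and 0, 0.54 and 1.69 RPM in traditional-seq, far from overlapping. The edgeR quasi-likelihood test gave a log2 fold change of 12.79 ± 0.55 (SE, adjusted p = 1.85e-23). The other 35- to 42-nt leaders behaved in the same way. Those starting at nt 84, 83 and 82 averaged 1791, 1091 and 1134 RPM in PANDORA-seq and 4.07, 1.95 and 3.26 RPM in traditional-seq. The leaders of 43 and 44 nt, starting at nt 77 and 76, exceed the read length of the traditional-seq files and have no value there.

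The fragment of nt 36 to 63, the first member in traditional-seq, ran the other way. Its lowest, median and highest values were 1.16, 32.1 and 202.7 RPM in traditional-seq and 0.12, 0.36 and 0.73 RPM in PANDORA-seq, again without overlap (log2 fold change of PANDORA-seq over traditional-seq -7.04 ± 0.62, edgeR, adjusted p = 9.16e-14). The 22-nt core of nt 38 to 59 averaged 27.6 ± 27.9 RPM in traditional-seq and 0.18 ± 0.10 RPM in PANDORA-seq (log2 fold change -7.09 ± 0.57, edgeR, adjusted p = 6.72e-15). The only 3′-terminal leader of traditional-seq, nt 90 to 119, was itself higher in PANDORA-seq, with 29.6 ± 12.4 RPM against 582 ± 308 RPM (log2 fold change 4.45 ± 0.35, edgeR, adjusted p = 2.26e-15).

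Among all sequences of 15 to 42 nt that entered the edgeR fit between the protocols, 55.6% were called higher and 35.6% lower in PANDORA-seq (calls need a fold change above 2 and an adjusted p below 0.05). Of the 12855 distinct 5S sequences of 15 to 42 nt, 1361 passed the filter on low counts, and of these 1084 were called higher (79.6%) and 140 lower (10.3%). The split depends on the scaling, which here is by library size. With TMM 1182 were higher and 90 lower, beside 61.2% and 31.2% of all sequences. With DESeq2 1243 were higher and 49 lower, beside 66.2% and 27.3%. By library size, the median log2 fold change of the tested 5S sequences was 4.22, beside 2.06 for all tested sequences. The filter keeps sequences that are abundant in at least 1 protocol, so these counts do not describe the sequences that failed it. Most of the 140 sequences lower by library size came from 1 stretch. Of 124 tested sequences that began at nt 28 to 40 and ended at nt 52 to 66, 79 were lower and 23 higher in PANDORA-seq, and no 3′-terminal sequence of 135 was lower. This stretch was chosen after its values were seen. Sequences that run past the annotated 3′ end with extra T are outside the rule and were not counted among the 135. Ends with 2 more T made up 0.821% ± 0.288 of PANDORA-seq reads that reached the annotated end, and 52.2% ± 6.70 of such traditional-seq reads. The count of 0 lower calls at the 3′ end therefore does not cover these sequences.

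By the smallest adjusted p among those above 10 RPM, the sequences called higher in PANDORA-seq were nt 13 to 52, nt 58 to 90 and nt 85 to 119, and those called lower were nt 28 to 43, nt 38 to 59 and nt 36 to 63. The first pair are internal fragments, seen almost only after T4PNK and AlkB treatment. The 40-nt fragment of nt 13 to 52 lay between 69.3 and 249 RPM in PANDORA-seq and was at 0 in 13 of 14 traditional-seq libraries (edgeR, adjusted p = 7.62e-25). The 33-nt fragment of nt 58 to 90 lay between 48.1 and 155 RPM in PANDORA-seq and was at 0 in 12 of 14 traditional-seq libraries (edgeR, adjusted p = 5.26e-24). The 16-nt fragment of nt 28 to 43 averaged 11.1 ± 9.04 RPM in traditional-seq and 0.03 ± 0.02 RPM in PANDORA-seq (edgeR, adjusted p = 3.73e-18). They are shown in full, with no part in capitals.
nt 13 to 52: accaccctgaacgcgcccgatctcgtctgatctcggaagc
nt 58 to 90: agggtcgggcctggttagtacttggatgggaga
nt 28 to 43: cccgatctcgtctgat

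Bases at the fragment ends differed with the sites used. G was the first base of 44.6% ± 6.20 of 5S reads in PANDORA-seq and of 20.3% ± 1.93 in traditional-seq, and C of 8.39% ± 2.07 and 33.7% ± 4.07. The last base was U in 75.5% ± 3.73 of PANDORA-seq reads and 34.3% ± 14.6 of traditional-seq reads, and G in 7.83% ± 1.59 and 36.4% ± 10.8. RNase A family enzymes cleave between a pyrimidine and A. Such a cut followed 1.14% ± 0.328 of PANDORA-seq fragments with an internal end and 6.93% ± 1.497 of traditional-seq ones. Neither share is set here beside the frequency of such steps in the transcript, so no preference for them can be read from it. All 9 end measures passed the permutation test at an adjusted p of 0.0189 or less. With T-extended reads counted in, the last base was U in 86.4% ± 2.95 and 74.6% ± 11.9, a difference of 11.8 percentage points in place of 41.2, and 7 of the 9 passed. U as first base and C as last base then did not, and A as first base was lower in PANDORA-seq, with 22.7% ± 3.46 against 27.4% ± 3.13, where it had been higher. Without sequences that match another RNA 8 passed. These measures are not independent of the positions above, as a few sites hold many of the reads.

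Many reads that reached the annotated 3′ end did not stop there. Besides the members, 18466 ± 7169 RPM in PANDORA-seq and 2162 ± 1360 RPM in traditional-seq ran past nt 119 with 1 to 4 T and nothing else. They did not match the 119-nt transcript and were outside the rule, and RefSeq places the end 2 bases further on. The leading ones are shown with the bases past nt 119 in capitals, the first pair from PANDORA-seq and the second from traditional-seq.
nt 85 to 119 and 1 T: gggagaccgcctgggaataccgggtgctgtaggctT
nt 84 to 119 and 1 T: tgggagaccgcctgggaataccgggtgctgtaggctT
nt 99 to 119 and 2 T: gaataccgggtgctgtaggctTT
nt 103 to 119 and 2 T: accgggtgctgtaggctTT

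Of all reads that reached nt 119, those ending there made up 34.2% to 60.1% in PANDORA-seq and 5.89% to 12.7% in traditional-seq. Reads with 1 more T made up 39.2% to 64.9% and 29.9% to 47.2%, and reads with 2 more T 0.461% to 1.46% and 38.0% to 59.9%. The ranges for the annotated end and for 2 T did not overlap (permutation test, p = 1e-05 for each, two-sided). Ends with 2 T were the most frequent in 13 of 14 traditional-seq libraries and rare in PANDORA-seq. In AD replicate 2 of traditional-seq 47.2% ended with 1 T and 38.0% with 2 T. Neither genotype comparison passed the test for any of the 3 ends (exact permutation test, adjusted p = 0.818 for each).

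**Figure D3:**
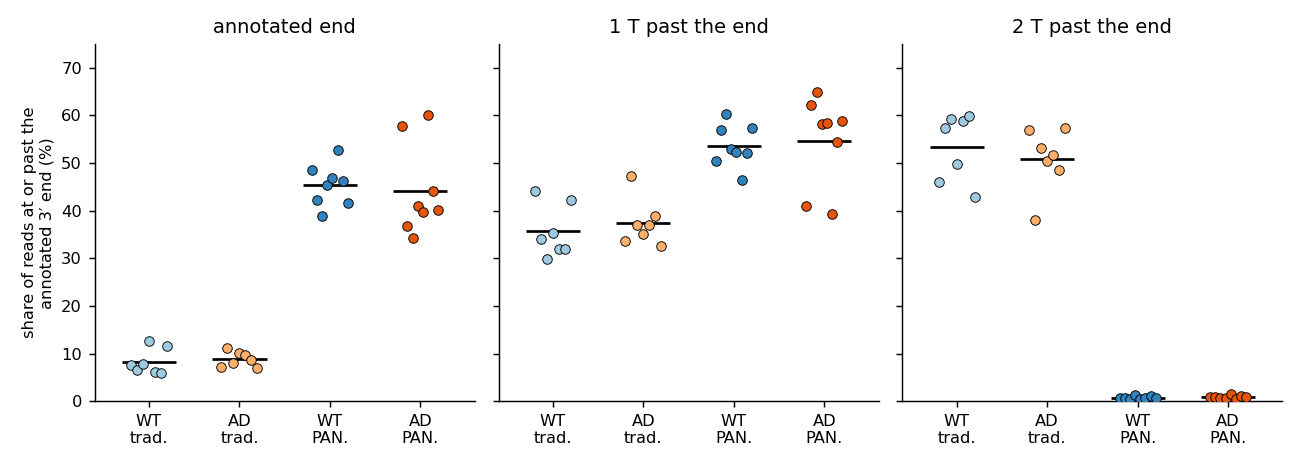
Of the reads that reach or pass nt 119, the share that ends there, 1 T further or 2 T further, 1 point per library and a line at each group mean (trad., traditional-seq; PAN., PANDORA-seq). The share with 2 T is 0.461% to 1.46% in PANDORA-seq and 38.0% to 59.9% in traditional-seq.

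Set beside other RNAs, 5S fragments gained more from the PANDORA-seq protocol than 18S rRNA, the RNA of the small subunit, and than a list of other RNA polymerase III products (Rn7sk, Rn7s1, Rn7s2, Rny1, Rny3, Vaultrc5, Rmrp and Rpph1). The log2 ratio of 5S to 18S reads ranged from -2.19 to -0.11 in PANDORA-seq and from -3.53 to -2.19 in traditional-seq, where the lowest PANDORA-seq library was just above the highest traditional-seq library (means -0.85 ± 0.52 and -2.73 ± 0.47, permutation test, p = 1e-05). The log2 ratio of 5S to the list was -0.08 ± 0.49 and -3.42 ± 1.48, again without overlap (permutation test, p = 1e-05). The list itself averaged 23479 ± 7689 RPM in PANDORA-seq and 12222 ± 5335 RPM in traditional-seq, and 18S 40954 ± 14470 RPM and 9352 ± 6644 RPM. With T-extended reads of 5S counted in, the log2 difference fell from 1.88 to 1.24 for 18S and from 3.35 to 2.70 for the list, both still past the test. Reads of 18S and of the list were still counted as exact matches only, without any extended reads of their own.

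Part of the 5S reads could also be assigned to genes annotated as miRNAs. The GENCODE genes Gm47301 (GRCm38, chr4:149817764-149817823, plus strand) and Gm47285 (chr12:85718503-85718563, minus strand) share nt 33 to 90 and nt 33 to 88 of the 5S transcript, and both lie inside annotated 5S genes, n-R5s193 and n-R5s64. Gm47281 (chrY:991657-991716, minus strand), inside n-R5s1, and Gm47276 (chr16:41217777-41217836, plus strand), in no annotated 5S gene, share nt 38 to 91. Sequences that also occur in an RNA of another class made up 4.71% to 11.7% of the 5S reads of a PANDORA-seq library and 22.3% to 55.3% in traditional-seq. The 5 internal leaders of traditional-seq were of this kind, and the 6 leaders of PANDORA-seq were not. None of 1738 mature miRNAs in RefSeq occurs within the 5S transcript. Without these sequences the log2 difference in 5S RPM was 4.81 and that in the 3′-terminal share 44.4 percentage points, both past the test.

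A minor share of reads differed from the transcript at single bases. Over reads of 20 nt or longer within 1 mismatch of the transcript, leaving out 3 bases at each read end, T62A (the transcript's T at position 62 read as A) was the most frequent of 357 possible substitutions in PANDORA-seq. It was carried by 1.42% to 3.20% of reads there in WT and 1.47% to 3.12% in AD PANDORA-seq libraries, and by 0.815% to 4.33% and 0% to 2.20% in traditional-seq, where it rests on 249 reads in all. The substitution occurs in 4 annotated copies with up to 3 differences, among them n-R5s106. The next, A90G, is in none of these copies and reached 0.397% in PANDORA-seq, while the median substitution stood at 0.0363%. In traditional-seq C28T, also in none of them, was more frequent over all libraries than T62A, with 296 reads (1.85%) against 1.43%, and in PANDORA-seq it stood at 0.125%.

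The total of 5S fragments showed no difference between AD and WT that passed the test. In bulk tissue, fewer cells of a type and less RNA per cell cannot be told apart, and p-values here measure the spread between libraries, each named as a separate sample. In PANDORA-seq the lowest, median and highest libraries were at 12958, 23934 and 34817 RPM in WT and 13270, 20757 and 31785 RPM in AD, with ranges that nearly coincide. The means were 24335 ± 8088 RPM and 21357 ± 7879 RPM (n = 8 each), a log2 difference of -0.19 (exact permutation test, p = 0.456, adjusted p = 0.796). In traditional-seq they were 231, 1060 and 2748 RPM in WT and 226, 1535 and 4050 RPM in AD, with means of 1332 ± 1011 RPM and 1637 ± 1405 RPM (n = 7 each, exact permutation test, p = 0.653, adjusted p = 0.812). The difference between the protocols in this genotype effect did not pass either (permutation test, p = 0.668).

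Nor did any measure of where the fragments lay in the RNA pass the adjusted test by genotype. The 3′-terminal share in PANDORA-seq was 74.5% ± 5.51 in WT and 72.3% ± 7.08 in AD, the internal share 16.3% ± 3.28 and 18.2% ± 3.73, and the 5′-terminal share 9.26% ± 3.602 and 9.52% ± 4.11. The log2 ratio of 5S to 18S reads was -0.74 ± 0.28 in WT and -0.96 ± 0.68 in AD. None of these 4 passed (exact permutation test, adjusted p = 0.796 or higher). The log2 ratio of 5S to the list of other RNA polymerase III products was 0.13 ± 0.54 in WT and -0.28 ± 0.35 in AD and did not pass either (exact permutation test, p = 0.0971, adjusted p = 0.631). The share of 5′ ends at nt 71 to 80 was 24.7% ± 8.29 in WT (16.1% to 40.8%) and 12.9% ± 6.53 in AD (6.34% to 23.2%), the window with the lowest p of 11 (exact permutation test, p = 0.00668, adjusted p = 0.0735). With T-extended reads counted in, it was the 1 window of 11 that passed (exact permutation test, adjusted p = 0.0325). The difference lay in the longest reads. Reads from nt 76 or 77 to the transcript end, of 43 and 44 nt, made up 16.1% of 5S reads in WT and 5.23% in AD, and with reads of 15 to 42 nt the window held 7.06% ± 2.78 in WT and 7.45% ± 2.08 in AD (exact permutation test, p = 0.7503).

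Among the length classes, the longest had the lowest p by genotype but did not pass the adjusted test. 5S fragments of 43 to 45 nt were at 1923, 5267 and 12362 RPM (lowest, median and highest) in WT PANDORA-seq libraries and at 247, 632 and 5222 RPM in AD, with overlap at the upper end of AD. The means were 5522 ± 3363 RPM and 1756 ± 2015 RPM, a log2 difference of -1.65 (exact permutation test, p = 0.0126, adjusted p = 0.164 over 13 measures). Per read matched to the reference the log2 difference was -1.89 and passed (exact permutation test, adjusted p = 0.0424). Such long fragments made up 13.9% to 35.5% of the 5S reads in WT and 1.54% to 17.3% in AD, with overlap (exact permutation test, p = 0.00124, not adjusted). The same was seen in the libraries as a whole. Reads of 43 to 45 nt from any RNA were 11.2% to 21.5% of a WT library and 2.13% to 10.7% of an AD library, without overlap (exact permutation test, p = 0.000155, the smallest that 8 against 8 libraries allow). Relative to all reads of 43 to 45 nt, 5S fragments differed by -0.38 on the log2 scale (exact permutation test, p = 0.443). Within PANDORA-seq the 5S classes of 15 to 24, 25 to 34 and 35 to 42 nt differed between genotypes by 0.22 or less on the log2 scale (exact permutation test, p = 0.348 or higher). The same classes differed by 0.326, 0.301 and -0.153 in traditional-seq (exact permutation test, p = 0.617 or higher).

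**Figure D4:**
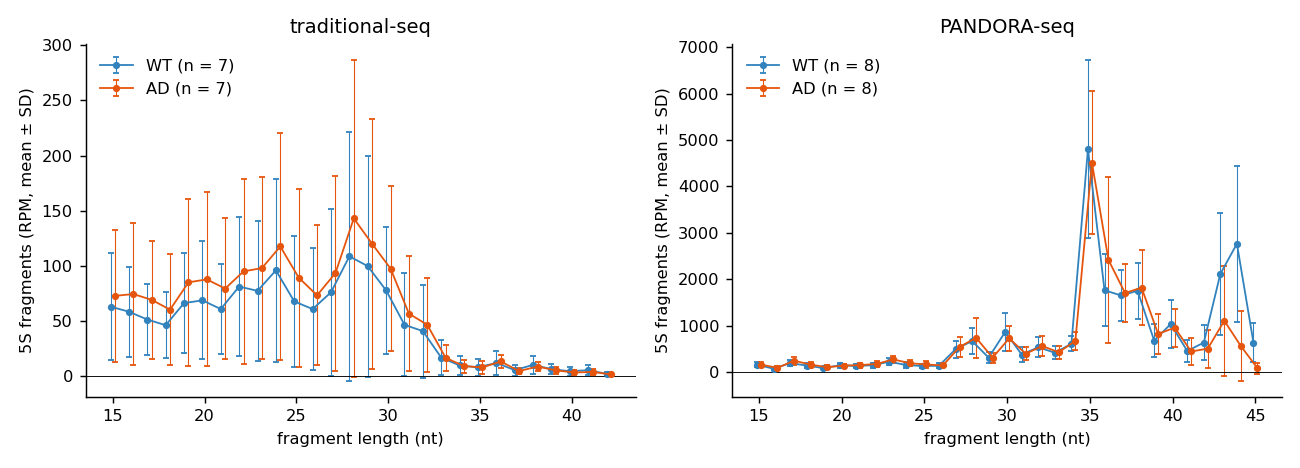
5S fragments by length in RPM, mean ± SD of the libraries of each group (7 WT and 7 AD in traditional-seq, 8 WT and 8 AD in PANDORA-seq), on separate vertical scales. PANDORA-seq has its highest point at 35 nt, and AD lies under WT at 43 to 45 nt, where the means sum to 5522 RPM in WT and 1756 RPM in AD.

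At the level of single sequences, 4.92% of all sequences in the PANDORA-seq fit were called lower and 0.203% higher in AD by the edgeR quasi-likelihood test, 5.12% in all. Of the 12846 distinct 5S sequences in PANDORA-seq, 1898 passed the filter, 83 of these were called lower (4.37%) and 3 higher (0.158%), and 1812 were not called. The shares were thus close to those of all tested sequences. With library size in place of TMM 45 were lower (2.37%) and 1 higher, beside 3.71% and 0.143% of all sequences, and without the filter 148 of 4391 were lower (3.37%) and 1 higher, beside 2.95% and 0.872%. The calls followed length. Of 141 tested 5S sequences of 43 to 45 nt, 70 were lower (49.6%). Of all 4623 tested sequences of that length, 2176 were lower (47.1%). These match any small RNA or rRNA transcript of the reference, 5S included. The median log2 fold changes were -1.91 for 5S and -1.94 for all. Of 1622 tested 5S sequences of 15 to 40 nt, 3 were lower and 3 higher (0.185% each), beside 0.205% and 0.243% of all tested sequences of that length, and a fit of sequences of 15 to 40 nt alone called 0 5S sequences with edgeR, with 51 at an unadjusted p under 0.05, where 0.0481% of all sequences were called lower and 0.00253% higher. The 5S share was not close to that of all sequences at every length. At 35 to 42 nt 10 of 564 tested 5S sequences were lower (1.77%), beside 110 of 15864 of all (0.693%). The share was 25% beside 19.6% at 43 nt, 54% beside 57.4% at 44 nt and 82.9% beside 66.4% at 45 nt. The median log2 fold change of 5S sequences went from -1.16 at 43 nt to -2.16 at 44 nt and -2.92 at 45 nt, beside -1.16, -2.47 and -3.22 for all sequences.

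**Figure D5:**
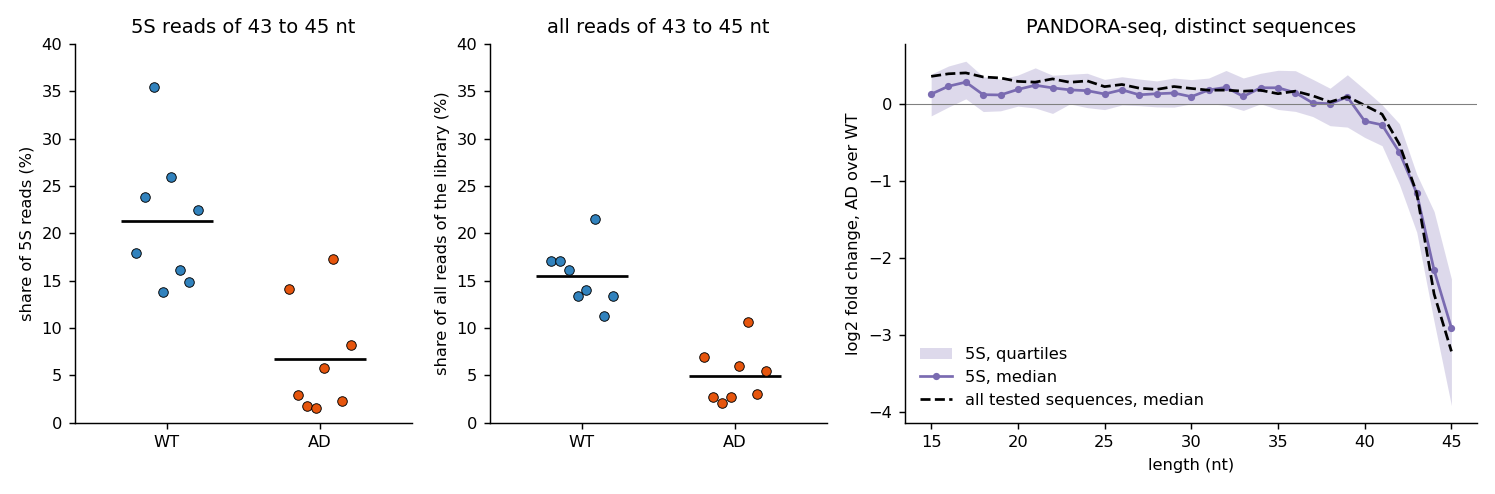
Left and middle, the share of 5S reads and of all reads that are 43 to 45 nt long in PANDORA-seq, 1 point per library and a line at each mean (8 WT, 8 AD). Right, log2 fold change of AD over WT by length, as the median and quartiles of the tested 5S sequences and the median of all tested sequences. Both medians fall together beyond 42 nt, to -2.92 and -3.22 at 45 nt.

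The fragment of nt 76 to 119, 44 nt long, was the only called sequence among the 6 leaders. Its lowest, median and highest values were 853, 2632 and 5775 RPM in WT and 42.2, 171 and 1536 RPM in AD, with overlapping ranges (log2 fold change -2.61 ± 0.71, edgeR, adjusted p = 0.0328). The call was lost when any of WT replicates 2, 3, 5, 6 and 8 or AD replicates 3, 4 and 8 was left out (log2 fold change -2.61 to -2.29, edgeR, adjusted p = 0.0535 to 0.0816). Without AD replicate 1 the log2 fold change was -3.33 (edgeR, adjusted p = 0.0032). It was also lost with library sizes in place of TMM (edgeR, adjusted p = 0.0772) and when counts were set against the library's reads of the same length (log2 fold change -1.03, edgeR, adjusted p = 0.519). Per 1000000 reads of 44 nt it held 35010 ± 21191 reads in WT and 17087 ± 16356 in AD, with overlap (exact permutation test, p = 0.0747). Its neighbour of nt 77 to 119, 1 nt shorter, averaged 1699 ± 1076 RPM in WT and 896 ± 967 RPM in AD and was not called (log2 fold change -1.13 ± 0.57, edgeR, adjusted p = 0.391). The 4 shorter leaders had log2 fold changes between -0.18 and 0.50 and adjusted p of 0.686 or higher (edgeR). Nt 85 to 119, for example, averaged 4380 ± 1933 RPM in WT and 3945 ± 1500 RPM in AD.

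The lower calls with the smallest adjusted p were not the abundant 3′-terminal fragments but 45-nt fragments that run through the middle of the RNA. They are shown with the part shared by all 3 in capitals.
nt 34 to 78: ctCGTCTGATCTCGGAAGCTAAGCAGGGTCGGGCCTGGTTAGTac
nt 36 to 80: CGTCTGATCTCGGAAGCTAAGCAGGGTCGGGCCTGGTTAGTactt
nt 32 to 76: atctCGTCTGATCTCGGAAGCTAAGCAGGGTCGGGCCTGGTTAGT

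The fragment of nt 34 to 78 lay between 2.19 and 7.73 RPM in WT, with a median of 3.10 RPM, and between 0.02 and 0.73 RPM in AD, with a median of 0.17 RPM. The groups did not overlap, and both this sequence and that of nt 36 to 80 also occur in the annotated miRNA genes above. The log2 fold change was -4.41 ± 0.50 (edgeR, adjusted p = 1.55e-05). The fragment of nt 36 to 80 averaged 1.83 ± 0.78 RPM in WT and 0.11 ± 0.10 RPM in AD, and that of nt 32 to 76 0.94 ± 0.49 RPM and 0.05 ± 0.06 RPM (log2 fold changes -4.05 ± 0.47 and -4.32 ± 0.50, edgeR, adjusted p = 1.71e-05 for both). All 3 were also called when scaled at each length in this way, with log2 fold changes of -2.08 to -2.40 (edgeR, adjusted p = 0.00357 to 0.00717).

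Under that scaling 1.53% of all tested sequences fell in AD and 1.09% rose. Of the 5S sequences 18 were lower (0.948%) and 0 higher. Of the 18, 17 were 43 to 45 nt long, from 141 tested 5S sequences of that length. The share of all tested sequences of 43 to 45 nt called under this scaling is not given. Whether 17 of 141 is more than that share therefore cannot be said. Of these 17, 14 began at nt 32 to 44. These bounds were taken from the called sequences themselves, and the number tested within them is not given. The 3′-terminal 45-nt fragment of nt 75 to 119 was also among the 18 (log2 fold change -2.03, edgeR, adjusted p = 0.0326). Summed over all 43- to 45-nt fragments that begin at nt 28 to 45, the level was 112 to 248 RPM in WT and 3.93 to 54.1 RPM in AD, without overlap. Those of 43 to 45 nt that end at nt 119 were at 1474 to 10240 RPM in WT and 185 to 4150 RPM in AD, with overlap. Both groups of positions were chosen after their values were seen, so these sums are given without a test.

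The 3 sequences called higher in AD were short and rare, all with means under 1 RPM.
nt 84 to 100: TGGGAGACCGCCTGGGa
nt 12 to 31: taccaccctgaacgcgcccg
nt 84 to 99: TGGGAGACCGCCTGGG

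The capitals mark what the first and the third share. Nt 84 to 100 lay between 0.10 and 0.33 RPM in WT and between 0.22 and 1.25 RPM in AD (log2 fold change 1.45 ± 0.37, edgeR, adjusted p = 0.0199). Nt 12 to 31 averaged 0.26 ± 0.19 RPM and 0.90 ± 0.76 RPM, and nt 84 to 99 0.14 ± 0.08 RPM and 0.39 ± 0.19 RPM (log2 fold changes 1.82 ± 0.51 and 1.43 ± 0.40, edgeR, adjusted p = 0.037 and 0.0397). The call of nt 12 to 31 was lost without any 1 of WT replicates 1, 2, 4, 5, 6, 7 and 8 and AD replicates 1 and 3, and that of nt 84 to 99 without WT replicates 1, 2, 5, 6, 7 and 8 or AD replicates 2, 3, 5, 6 and 8, with log2 fold changes of 1.40 to 2.22 and 1.23 to 1.61 over the 16 fits that leave out 1 library. None of the 3 was called with the replicate number as a block (edgeR, adjusted p = 0.0535 to 0.114) or with each library scaled at each length (edgeR, adjusted p = 0.191 to 0.253).

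In traditional-seq 0% of all tested sequences were called in either direction. Of 3741 distinct 5S sequences there, 209 passed the filter and 0 were called by edgeR's quasi-likelihood test, its likelihood ratio test or DESeq2, with 1 sequence at an unadjusted p under 0.05 in each. The sequence that edgeR ranked first began at nt 1, the 5′ end of the RNA.

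Nt 1 to 21 was at 0.21 to 1.88 RPM in WT and 0.87 to 5.14 RPM in AD, with overlap (log2 fold change 1.35 ± 0.53, edgeR, adjusted p = 0.9998). In PANDORA-seq its log2 fold change was 0.28 ± 0.38 and it was not called (edgeR, adjusted p = 0.814). The leading internal fragment of traditional-seq, nt 36 to 63, was at 3.46, 9.41 and 140 RPM in WT and at 1.16, 54.7 and 202.7 RPM in AD, so that the spread within each genotype was far larger than the difference between them.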

How the data were processed

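Small RNA reads of 16 PANDORA-seq and 14 traditional-seq libraries of mouse prefrontal cortex were analysed from the deposited tables, which list each distinct sequence with its raw read counts. How the authors trimmed and collapsed the reads is not given in the sources used here. SPORTS1.1 annotated the reads in the study's methods, and the submitters' processing notes name the build mm39. No column was without a sample (0). Other data of the study were not used here.

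Sequences were matched to GENCODE vM21 (GRCm38) transcripts with a program written for the purpose (g++ 11.4.0), which recovered 1000 of 1000 simulated fragments with 0 or 1 mismatch and 0 of 1000 with 2. The 18S transcript was read from the opposite strand to its annotation. RPM are counts divided by all reads of the library, times 1000000. For levels and shares, AD and WT libraries were set against each other in a two-sided exact permutation test (12870 and 3432 splits, smallest p 0.000155 and 0.000583) and the protocols in one with 100000 shuffles, with Benjamini-Hochberg adjustment within a family of measures. Sequences within 1 mismatch of any small RNA or rRNA transcript were fitted together with edgeR 4.0.16 (R 4.3.3, quasi-likelihood, filterByExpr with a minimum count of 10, TMM within a protocol, library size and genotype as covariate between protocols) and a call needs a fold change above 2 with an adjusted p below 0.05. In simulated counts with 200 sequences changed 4-fold, 124 of the 166 that passed the filter were called for PANDORA-seq, 135 of 169 for traditional-seq and 177 of 178 between protocols. These counts were drawn with the same fixed dispersion for all sequences and comparisons, not fitted to the data. They do not give the power for fragments that vary more, such as the internal leaders of traditional-seq.

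Named sequences were the 6 with the highest mean in each protocol, up to 3 called per direction with the smallest adjusted p (between protocols only above 10 RPM), or the 2 with the smallest p where none was called. 1 of this last pair is not reported here. DESeq2 1.42.0, other scalings, filters, read lengths and denominators, a replicate block and leaving out each library were tried as alternatives. The members and lists were chosen with earlier results of these data known. Depth was 54926347 to 105876141 reads in PANDORA-seq and 9370669 to 17053412 in traditional-seq. The 6 tissue miRNAs were counted as exact reads of their RefSeq mature sequences and chosen from textbook knowledge after the other results were known. Reads carry no molecular identifiers. SDs, standard errors and p-values are over libraries and so include the spread between them. Same-numbered libraries of WT and AD did not deviate together (correlations -0.539 to 0.434 and -0.474 to 0.569), so the numbers were not taken as pairs.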

Additional observations from a re-analysis of the deposited data

Results flagged for a closer look

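Of 26 tests for a library far from the rest of its group, 2 met the limit, and chance gives about 1 in 20. The 5′-terminal share of WT traditional-seq replicate 7 was 9.005% of 5S reads, and the log2 ratio of 5S to 18S reads of AD traditional-seq replicate 6 was -3.53, the lowest of its group. Sequences outside the members also carried 5S reads. Reads that ran past the annotated 3′ end with 1 to 4 T came to 18466 RPM in PANDORA-seq and 2162 RPM in traditional-seq.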

How the results depend on the processing

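The 5S RPM, position shares and ratios between protocols kept their direction and passed under every alternative run, and with 1 library left out the log2 difference in RPM was 3.85 to 4.15. Without a low-count filter 2973 of 4302 5S sequences were called between protocols, 2490 higher and 483 lower in PANDORA-seq. Of all 342719 sequences in that fit, 131793 were called higher and 66475 lower. The median log2 fold change of all sequences moved from 2.06 to 3.22 with TMM and to 4.65 with DESeq2, with 1182 5S sequences higher and 90 lower, and 1243 and 49. In PANDORA-seq, calls by genotype numbered 46 with library size in place of TMM, 149 without the filter, 0 at 15 to 40 nt, 18 scaled at each length and 63 to 96 with 1 library left out. The 63, of 1921 tested, came without WT replicate 8, where 2056 of 49004 of all sequences were lower and 55 higher. The 96 came without AD replicate 1, of 1951, with 2977 and 74 of 50395 of all. They also came without AD replicate 6, of 1921, with 2884 and 170 of 49385 of all. Per matched read the log2 difference at 43 to 45 nt was -1.89 and passed. Windows of 5′ ends past the threshold were 1 with T-extended reads and 0 to 1 with a library left out. The following genotype differences, none past the threshold, changed sign. With reads of 15 to 42 nt, the 5′-terminal share was -1.01, the 3′-terminal share 1.103, the internal share -0.0889 and the log2 RPM at 25 to 34 and 35 to 42 nt -0.13 each. Per matched read these last were -0.00236 and -0.0216. Internal RPM was 0.0502 without sequences that match another RNA. In traditional-seq, RPM at 35 to 42 nt was 0.53 as a mean of log2 values, and with T-extended reads the 3′-terminal share was -1.19 and the internal share 1.103. Nt 82 to 119 was at -0.00394 at 15 to 40 nt and -0.0343 scaled at each length. With a library left out, the 5′-terminal share ranged from -0.56 to 1.09 in PANDORA-seq, RPM from -0.11 to 0.58 in traditional-seq, nt 85 to 119 from -0.30 to 0.0207, nt 82 to 119 from -0.14 to 0.37, nt 83 to 119 from -0.13 to 0.14, and in traditional-seq nt 36 to 63 from -0.24 to 0.89, nt 35 to 63 from -0.32 to 0.79, nt 90 to 119 from -0.0849 to 0.26, nt 38 to 59 from -0.41 to 0.73, nt 34 to 63 from -0.42 to 0.75 and nt 37 to 59 from -0.33 to 0.79. With the replicate number as a block, 80 of 1898 5S sequences were called lower in PANDORA-seq and 0 higher. Of all 47675 sequences 2512 were lower and 42 higher. In traditional-seq 0 were called, of 5S or of all. Between protocols, blocked by genotype and number, 1216 of 1361 were called, 1094 higher and 122 lower. Of all 35623 sequences 19903 were higher and 12350 lower. With the replicate block, nt 38 to 59 in traditional-seq was at -0.0602. Of 16 PANDORA-seq and 14 traditional-seq libraries, 1 and 3 correlated best with their own number, so the block rests on numbers alone. The cause of these changes was not tested. Traditional-seq held as few as 2337 5S reads in a library, and the smallest difference detectable in its rarer fragments was not measured.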
